A study of Mus musculus with 2 samples.

Results

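The genes described here are the 9 genes of the JAK-STAT pathway Stat3, Stat5b, Socs1, Socs2, Socs3, Cish, Jak1, Jak2 and Tyk2, out of 32285 genes counted. They were chosen by name, and each matched 1 gene of the annotation. Mouse retinae were measured by single-cell RNA sequencing of transcript 3′ ends (10x Genomics), with 1 library from a control pool and 1 from a light damage pool. All mice were 6 to 9 weeks old and kept in complete darkness for 18 h. The light damage group then received 5000 lux of white fluorescent light for 30 min and recovered for 6 h in dim light, whereas the control group received no such light. The mice are labelled WT. By the study's methods they carried 2 floxed Tgfbr2 alleles, which act as wild type without Cre, on a Balb-C/CD1 background with the leucine variant of RPE65, and both sexes were used. Retinae of 3 to 5 mice were pooled per group. Dead cells were removed with magnetic beads. No test between conditions was possible with 1 library each. The intervals given are 95% intervals and cover counting error only, not how mice or libraries vary.

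In this pathway, a cytokine brings receptor chains together, and the kinases bound to them, JAK1, JAK2 and TYK2, phosphorylate the receptor and STAT proteins. Phosphorylated STAT dimers enter the nucleus and bind DNA. SOCS1, SOCS2, SOCS3 and CISH are made in response and inhibit the receptor complex, so the level of their RNA is widely used as a readout of recent signaling. In the retina, cytokines that act through the shared receptor chain gp130, such as LIF and CNTF, are known to protect photoreceptors and to activate STAT3 in Müller glia and photoreceptors.

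STAT dimers are known to bind the palindrome TTCNNNGAA, and the promoters of the members were searched for it on both strands, from 250 bases before to 50 bases after the start of the gene (RefSeq, GRCm38.p6). A promoter was held for 8 of the 9 members, all but Socs2. Of these, 2 had a match, Socs3 and Cish, and those of Stat3, Stat5b, Socs1, Jak1, Jak2 and Tyk2 had none in this window. Of all 32851 promoters, 8.3% held a match. The windows around all matches are shown. Socs3 and Cish were higher after light damage in several classes, and so was Stat3, which had no match in this window. Socs1, also without a match there, was higher in rods over 30% unspliced and in Müller glia. Sequence outside the window was not searched, and the relation of matches to levels was not tested. The match stands in capitals, and each sequence is 30 bases long and reads 5′ to 3′ along the gene.
Socs3 (chr11:117969501-117969530, minus strand): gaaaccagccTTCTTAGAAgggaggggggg
Cish (chr9:107296654-107296683, plus strand): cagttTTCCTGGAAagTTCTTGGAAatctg
In Socs3 the match began 154 bases before the RefSeq start, and the window overlapped no Socs3 exon of the GENCODE annotation. Cish had 2 matches, the first at base 1 and the other at base 12 counted from the RefSeq start, in a window that overlapped an exon. The GENCODE spans of both genes, given below, begin further upstream, so both windows lie inside them. A match describes the letters only and no binding was measured.

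Droplets were named by the share of their unique molecular identifiers (UMIs) that fell on marker genes, and rods were split on the share of unspliced UMIs. The control library gave 3669 droplets and the light damage library 5593. In the order control and light damage, they held 2389 and 1908 rods with under 20% unspliced UMIs, 735 and 3144 rods with over 30%, 123 and 80 cones, 153 and 276 droplets of the retinal pigment epithelium (RPE), 40 and 36 Müller glia, and 12 and 36 microglia. Rod markers took 9.59% and 8.98% of the UMIs in rods under 20%, and 5.81% and 4.23% in rods over 30%. Microglia markers took 1.81% and 2.42% of the UMIs in microglia, but the 12 control microglia also carried 4.64% rod marker UMIs, against 0.429% after light damage. Müller glia markers took 2.13% of UMIs in control and 0.907% in light damage Müller glia. Of these 6 classes, the median UMIs per droplet differed most in Müller glia, 2527.5 against 15374.5. The libraries shared 7 barcodes. The sex-linked RNA Xist had 3462 UMIs in control and 2 in light damage rods over 30%, so the sex of the mice and the light cannot be told apart.

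Levels are CPM, the spliced plus ambiguous UMIs of a gene scaled to the total of such UMIs of a class and library. A gene was counted as higher or lower where its level differed by a log2 ratio of at least 1, among genes with at least 20 UMIs over both libraries, with a count of 0 set to 3 UMIs. By this count 3 of 6 members were higher in rods under 20%, where 5.5% of 10143 genes were higher and 1.49% lower. In rods over 30%, 4 of 8 members were higher, against 9.42% of 12199 genes, and 5.06% of genes were lower. In cones it was 4 of 6 members, against 17.1% of 7582 genes, with 4.96% lower. In RPE it was 4 of 6, against 12.9% of 8797 genes, with 6.92% lower. In Müller glia all 4 members with enough UMIs were higher, against 25.3% of 4400 genes, with 16.5% lower, and in microglia 2 of 4, against 25.1% of 3432 genes, with 14.9% lower. The minimum covers both libraries together, so a gene can pass it through its light damage UMIs alone. In Müller glia the 4 members had 9 (Stat3), 0 (Socs1), 1 (Socs3) and 9 (Jak1) control UMIs. The 4 in microglia had 4 (Stat3), 0 (Socs2), 0 (Socs3) and 2 (Jak1). All of these passed only through light damage, as did Socs3 in every class, so the minimum favored members counted as higher. No member was lower by this measure in any of the 6 classes. With unspliced UMIs added and a minimum of 10 UMIs, 1 of 9 members was lower in rods over 30%, against 7.73% of 19037 genes. By that count 1 of 7 members was lower in microglia, against 19.1% of 7551 genes. The median gene had a log2 ratio of 0.16 in rods under 20%, -0.01 in rods over 30%, -0.08 in cones, -0.11 in RPE, -0.48 in Müller glia and -0.49 in microglia. Members with fewer UMIs than the minimum in a class are given by their UMIs or CPM, without a ratio of light damage to control.

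**Figure D1:**
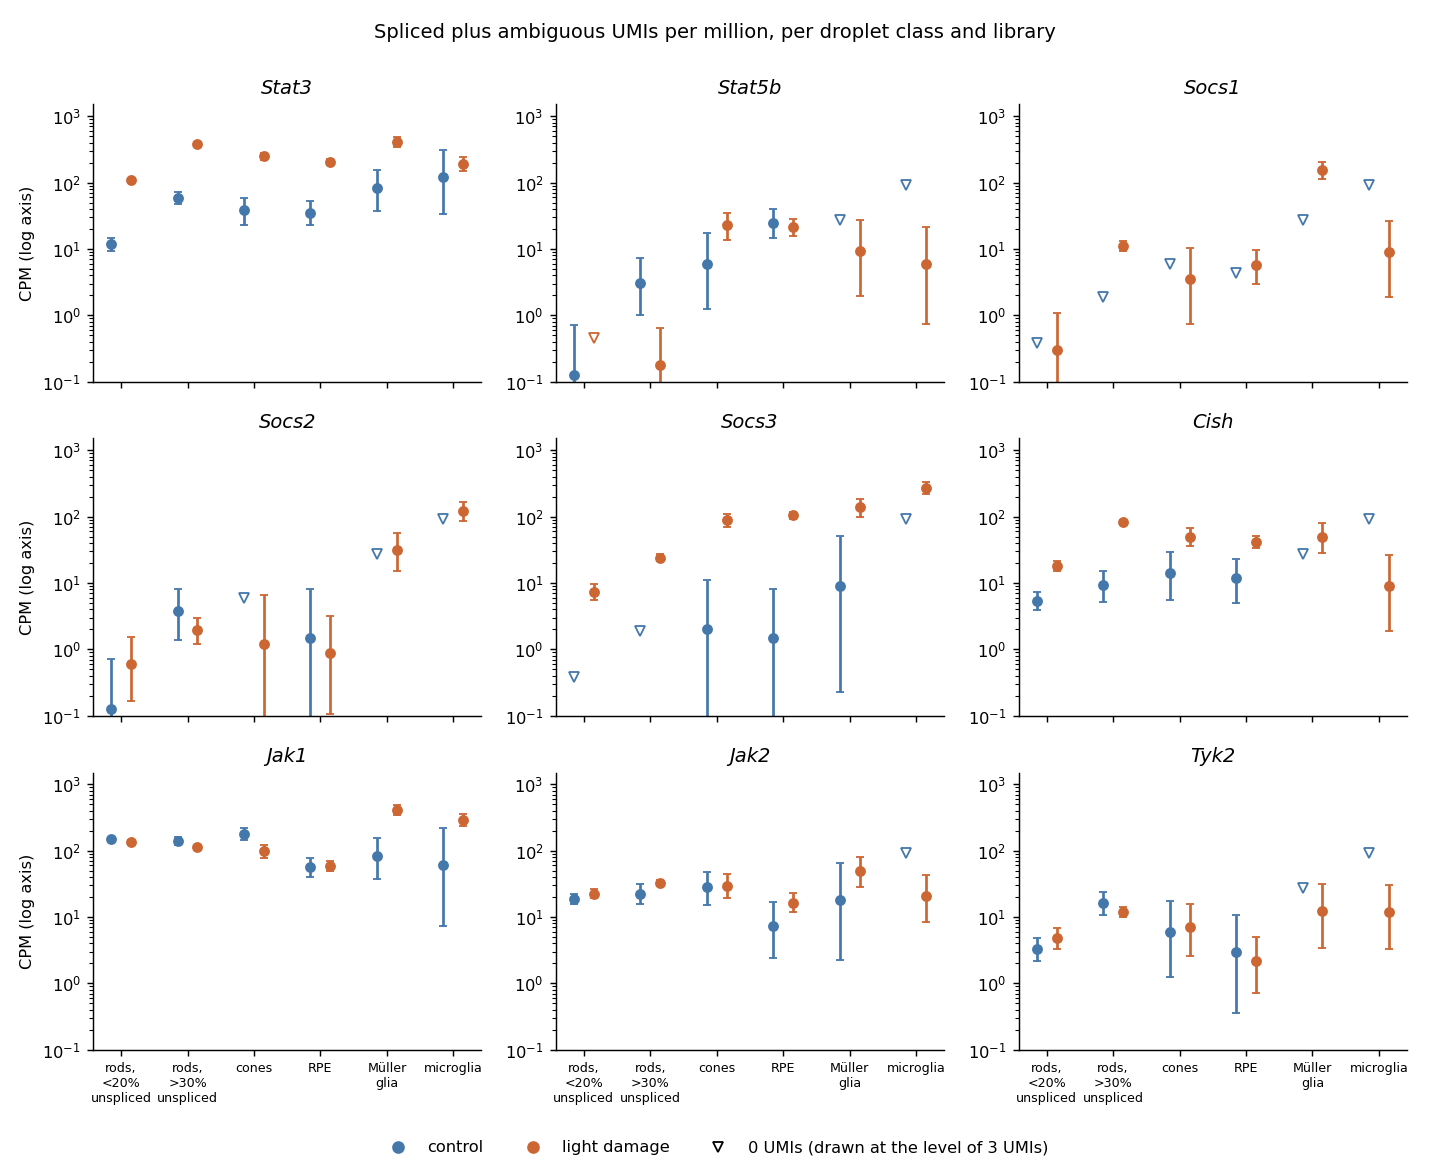
Levels of the 9 members in CPM on a log axis, by droplet class (x axis) in the control (blue) and the light damage library (orange). Points carry 95% Poisson intervals that are cut at 0.1 CPM, and open triangles mark 0 UMIs and are drawn at the level of 3 UMIs. Stat3 and Socs3 stood higher after light damage in both rod classes, cones, RPE and Müller glia, while Jak1 stood higher in Müller glia and microglia.

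Of the 2 STAT genes, Stat3, whose product carries signals of the gp130 cytokines, was higher after light damage in every class but microglia. The gene (ENSMUSG00000004040) lies on chromosome 11 from 100885098 to 100939540. Rods under 20% held 92 control and 726 light damage UMIs, 11.8 CPM (9.47 to 14.4) against 110.0 CPM (102 to 118). This was a log2 ratio of 3.23 (2.91 to 3.56). Rods over 30% held 93 and 4335 UMIs, 57.9 CPM (46.8 to 71.0) against 381 CPM (370 to 393), and the log2 ratio was 2.72 (2.42 to 3.03). The level in control rods over 30% was thus above that in control rods under 20%, with a log2 ratio of 2.30 (1.87 to 2.73), and below that of light damage rods under 20%.

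Outside rods, cones held 19 and 208 Stat3 UMIs, 38.1 CPM against 247 CPM, with a log2 ratio of 2.70 (2.02 to 3.46). In RPE it had 24 and 470 UMIs, 35.2 CPM against 205 CPM, a log2 ratio of 2.54 (1.95 to 3.20). In Müller glia 9 and 131 UMIs gave 82.5 CPM against 408 CPM and a log2 ratio of 2.31 (1.34 to 3.47). These ratios overlapped one another and those of both rod classes within counting error, and the 2 rod classes overlapped each other. Microglia had 4 UMIs in the control, all in 1 droplet, and 64 after light damage, with a log2 ratio of 0.66 (-0.77 to 2.58) that includes 0.

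After light damage the highest Stat3 levels were those of Müller glia (408 CPM, 341 to 485) and rods over 30% (381 CPM), which did not differ beyond their intervals. Cones (247 CPM, 215 to 283), RPE (205 CPM, 187 to 224) and microglia (193 CPM, 148 to 246) followed, each overlapping its neighbour. Rods under 20%, at 110.0 CPM, lay below all of them. In the control, rods under 20% had the lowest level too.

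Free RNA, taken from barcodes under 50 UMIs, also held more Stat3 after light damage, 172 CPM against 13.5 CPM. From the RPE marker UMIs in rods, free RNA made up an estimated 0.955% of the UMIs in light damage rods under 20% and 1.08% in rods over 30%. It would account for 10.8 of 726 and 21.0 of 4335 Stat3 UMIs.

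The share of droplets with a Stat3 UMI was 2.72% in control and 24.2% in light damage rods under 20%, and 7.35% and 53.2% in rods over 30%. Light damage droplets were deeper, with medians of 3112 against 2728 UMIs in rods under 20% and 6180 against 3948 in rods over 30%. With each droplet thinned to 2000 UMIs, and shallower droplets left out, the shares were 30 of 1798 droplets (1.67%, 1.13 to 2.37) and 286 of 1668 (17.1%, 15.4 to 19.0) in rods under 20%. The same shares in rods over 30% were 24 of 605 (3.97%, 2.56 to 5.85) and 802 of 3107 (25.8%, 24.3 to 27.4). The thinned share in Müller glia was 1 of 27 droplets in the control and 16 of 33 after light damage (48.5%, 30.8 to 66.5). A higher share of droplets after light damage thus remained at equal depth in both rod classes, cones, RPE and Müller glia.

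**Figure D2:**
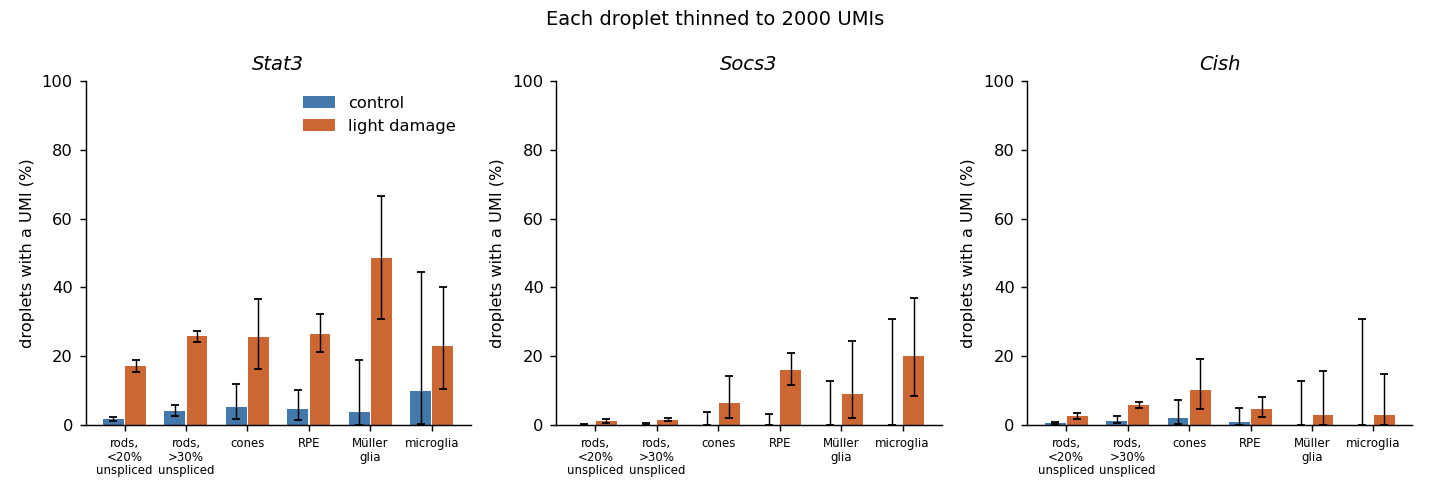
Share of droplets with at least 1 UMI of Stat3, Socs3 and Cish (y axis, percent) after each droplet was thinned to 2000 UMIs, by droplet class and library. Bars show the share and error bars its exact binomial 95% interval. Stat3 was found in 17.1% to 48.5% of light damage droplets and in 1.67% to 10.0% of control droplets.

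The other STAT gene, Stat5b, whose product carries growth hormone and other cytokine signals (ENSMUSG00000020919, chromosome 11 from 100780731 to 100850724), was close to the detection limit in rods. Rods under 20% held 1 and 0 UMIs, and rods over 30% held 5 and 2, with 3 of the 5 control UMIs in 1 droplet. The latter were 3.12 CPM (1.01 to 7.27) against 0.176 CPM (0.021 to 0.636), a lower level after light damage that rests on these few UMIs. Its clearest level was in RPE, with 17 control UMIs (24.9 CPM, 14.5 to 39.9) and 49 after light damage (21.3 CPM, 15.8 to 28.2), and the log2 ratio of -0.22 (-1.05 to 0.66) included 0. Cones had 3 and 19 UMIs, 6.01 CPM against 22.6 CPM, with a log2 ratio of 1.91 (0.14 to 4.31), and the 19 UMIs came from 14 of 80 droplets. Unspliced Stat5b in cones went the same way, from 4 to 54 UMIs (log2 2.43, 0.99 to 4.36). With cones thinned to 2000 UMIs, 0 of 95 control droplets (0% to 3.81%) and 4 of 78 light damage droplets (1.41% to 12.6%) held a spliced Stat5b UMI. These intervals overlapped. Rod markers took 7.69% of the UMIs in control and 3.03% in light damage cones, and their part in the Stat5b values was not tested.

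Socs3, the feedback inhibitor of gp130 receptors, had no UMI in control rods and UMIs in every class after light damage. The gene (ENSMUSG00000053113) lies on chromosome 11 from 117966079 to 117970047. Rods under 20% held 0 UMIs in the control, where 3 UMIs would be 0.383 CPM, and 49 after light damage (7.42 CPM, 5.49 to 9.81), at least 19.4-fold higher. Rods over 30% held 0 and 275 UMIs (24.2 CPM, 21.4 to 27.2), at least 12.9-fold higher. Here and below, a fold against 0 is taken against 3 control UMIs and leaves out counting error of the light damage count. The counting intervals of the 2 log2 ratios began lower, at 3.92 in rods under 20% and 3.39 in rods over 30%. Expected free RNA accounts for 2.39 of the 49 and 4.65 of the 275 UMIs.

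In RPE, Socs3 had 1 control UMI and 241 after light damage, 1.47 CPM against 105 CPM (92.1 to 119), a log2 ratio of 6.16 (3.67 to 11.47). Cones had 1 and 74 UMIs, the latter 88.0 CPM (log2 5.46, 2.93 to 10.78), and Müller glia had 1 and 44, 9.16 CPM against 137 CPM (log2 3.90, 1.35 to 9.24). These ratios rest on 1 control UMI each, and without the droplets with the most Socs3 UMIs the control counts were 0 and the lowest log2 ratios 4.51 in RPE, 3.52 in cones and 1.90 in Müller glia. Microglia held 0 UMIs in the control and 90 after light damage, at least 2.96-fold higher. With 271 CPM (218 to 333) light damage microglia had the highest Socs3 level of the 6 classes, followed by Müller glia (99.7 to 184), RPE and cones (69.1 to 110), which overlapped, and then by rods over 30% and rods under 20%.

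How Socs3 was spread over droplets differed between classes. It was found in 103 of 276 light damage RPE droplets (37.3%) and in 33 of 80 cones (41.2%), but in 154 of 3144 rods over 30% (4.90%), of which 1 droplet held 20 of the 275 UMIs. Thinned to 2000 UMIs, the shares were 41 of 257 droplets in RPE (15.95%, 11.7 to 21.0), 6.41% (2.11 to 14.3) in cones and 1.45% (1.06 to 1.93) in rods over 30%. RPE lay above rods at equal depth in all UMIs, and the interval of cones overlapped that of RPE. Unspliced UMIs count towards this depth but not towards the share. They made up 4.77% of the UMIs in light damage RPE and 52.3% in light damage rods over 30%, so depth in spliced UMIs was not equal.

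Cish, an inhibitor induced by STAT5, was the SOCS gene among the members with the most UMIs in control rods. The gene (ENSMUSG00000032578) lies on chromosome 9 from 107296026 to 107302784. Rods under 20% had 42 and 120 UMIs, 5.36 CPM (3.87 to 7.25) against 18.2 CPM (15.1 to 21.7), with a log2 ratio of 1.76 (1.24 to 2.30). For rods over 30%, 15 and 954 UMIs gave 9.35 CPM (5.23 to 15.4) against 83.9 CPM (78.7 to 89.5), and the log2 ratio was 3.17 (2.44 to 4.01). The intervals of these ratios do not overlap.

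Cish was also higher in cones, with 7 and 42 UMIs, 14.0 CPM against 49.9 CPM (log2 1.83, 0.66 to 3.23), and in RPE, with 8 and 95 UMIs, 11.7 CPM against 41.4 CPM (log2 1.82, 0.78 to 3.07). Müller glia held 0 and 16 UMIs and microglia 0 and 3. The order of the classes after light damage was unlike that of Socs3. Rods over 30% were highest for Cish, above cones (36.0 to 67.5 CPM) and RPE (33.5 to 50.6 CPM) but with an interval that overlapped that of Müller glia (49.9 CPM from 16 UMIs), while microglia, highest for Socs3, held 9.04 CPM of Cish (1.86 to 26.4). The thinned share of droplets with a Cish UMI was 1.32% (0.57 to 2.59) in control and 5.73% (4.94 to 6.60) in light damage rods over 30%.

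Socs1, known as an inhibitor of interferon signaling (ENSMUSG00000038037, chromosome 16 from 10782240 to 10785536), had 0 UMIs in all 6 control classes. After light damage it was highest in Müller glia, with 49 UMIs in 17 of 36 droplets (153 CPM, 113 to 202), at least 5.56-fold higher than in the control. Rods over 30% held 125 UMIs in 101 of 3144 droplets (9.16 to 13.1 CPM), at least 5.89-fold higher. Rods under 20% held 2 UMIs, so that within the light damage library rods over 30% were higher with a log2 ratio of 5.18 (3.30 to 8.24). RPE held 13 UMIs, cones 3 and microglia 3, the last in 1 droplet.

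Socs2, an inhibitor of growth hormone signaling (ENSMUSG00000020027, chromosome 10 from 95385362 to 95417180), had most of its UMIs after light damage in microglia, Müller glia and rods over 30%. Light damage microglia held 40 UMIs in 13 of 36 droplets (120 CPM, 86.1 to 164) and the 12 control microglia held 0, which allows up to 91.7 CPM, so the level was at least 1.31-fold higher. With droplets named by Leiden cluster instead, the lowest log2 ratio was -0.16, so that a difference was not established. Müller glia held 0 and 10 UMIs. The 6 control and 22 light damage UMIs of rods over 30% gave 3.74 CPM and 1.94 CPM, with a log2 ratio of -0.95 (-2.30 to 0.64). RPE held 1 and 2 UMIs and cones 0 and 1.

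**Figure D3:**
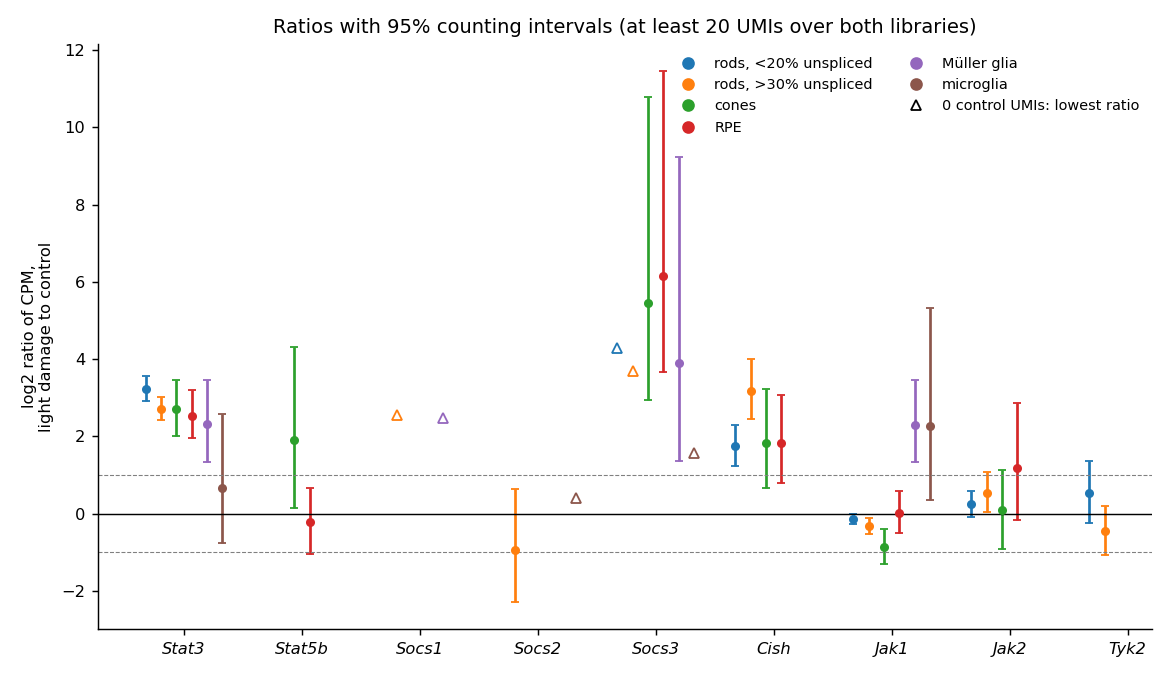
Log2 ratio of light damage to control CPM (y axis) of the 9 members, with 1 color per droplet class and 95% counting intervals. Open triangles show the lowest ratio that a control count of 0 allows, and dashed lines mark a log2 ratio of 1 and -1. Stat3, Socs3 and Cish lie above 1 in both rod classes, cones and RPE, and the kinases lie between -1 and 1 there except Jak2 in RPE, whose interval includes 0.

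Among the kinases, Jak1, used by gp130, interferon and many interleukin receptors, moved in opposite directions between classes. The gene (ENSMUSG00000028530) lies on chromosome 4 from 101152367 to 101265282. Rods under 20% had 1162 and 892 UMIs, 148 CPM (140 to 157) against 135 CPM (126 to 144), with a log2 ratio of -0.14 (-0.26 to -0.01). Rods over 30% had 227 and 1290 UMIs, 141 CPM against 114 CPM, and -0.32 (-0.52 to -0.11). Cones had 89 and 83 UMIs, 178 CPM against 98.6 CPM, a log2 ratio of -0.85 (-1.30 to -0.41). Rod markers took 7.69% of the UMIs in control and 3.03% in light damage cones, and their part in this value was not tested.

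In RPE, Jak1 did not differ beyond counting error, with 39 and 134 UMIs, 57.2 CPM against 58.4 CPM and a log2 ratio of 0.03 (-0.50 to 0.58). In Müller glia it was higher after light damage, with 9 and 130 UMIs, 82.5 CPM against 405 CPM, a log2 ratio of 2.30 (1.33 to 3.46). Microglia had 2 and 97 UMIs, 61.1 CPM against 292 CPM, a log2 ratio of 2.26 (0.37 to 5.32). The 2 control UMIs of microglia lay in 1 droplet, and without the droplets with the most Jak1 UMIs the control count was 0 and the lowest log2 ratio was 1.47. Depth, rod marker UMIs and the Müller glia markers also differed between the libraries in these classes, as given above, and their part in the Jak1 values was not tested.

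Jak2, which serves growth hormone and erythropoietin receptors (ENSMUSG00000024789, chromosome 19 from 29251828 to 29313080), had 148 and 149 UMIs in rods under 20%, 18.9 CPM against 22.6 CPM, with a log2 ratio of 0.26 (-0.08 to 0.59). Its 36 and 372 UMIs in rods over 30% gave 22.4 CPM against 32.7 CPM and a log2 ratio of 0.55 (0.05 to 1.08). Cones had a log2 ratio of 0.08 (-0.92 to 1.14). RPE had 5 and 38 UMIs, 7.33 CPM against 16.6 CPM, and the log2 ratio of 1.17 (-0.17 to 2.88) counted as higher although its interval included 0. With unspliced UMIs added it was 0.72, and 3 members were then higher in RPE. Müller glia held 2 and 16 UMIs and microglia 0 and 7.

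Tyk2, a kinase of interferon receptors (ENSMUSG00000032175, chromosome 9 from 21104068 to 21131243), had 26 and 32 UMIs in rods under 20% (3.32 CPM against 4.85 CPM, log2 0.55, -0.25 to 1.35) and 26 and 134 in rods over 30% (16.2 CPM against 11.8 CPM, log2 -0.46, -1.07 to 0.21). Both intervals include 0. In the other classes it held 0 to 6 UMIs per library.

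Unspliced UMIs hold intron sequence and are given as CPM of the unspliced UMIs of a class and library. In rods over 30% they were most numerous for Stat3 (a gene of 54443 bases), Jak1 (112916 bases) and Jak2 (61253 bases), and few for Socs1 (3297 bases), Socs3 (3969 bases) and Cish (6759 bases). They did not follow gene length throughout, as Stat5b (69994 bases) had 6 and 32 and Socs2 (31819 bases) had 0 and 6. Stat3 in rods over 30% had 176 unspliced UMIs in the control and 9824 after light damage, 79.9 against 789.7 CPM, with a log2 ratio of 3.31 (3.09 to 3.53). This was above its spliced log2 ratio of 2.72, and the intervals did not overlap. The 2 ratios are scaled to different totals, however, and the class held 57.9% unspliced UMIs in the control and 52.3% after light damage. Of the Stat3 UMIs themselves, 65.4% (59.4 to 71.1) and 69.4% (68.6 to 70.1) were unspliced, and these intervals overlapped. Unspliced Stat3 was the only one of 5 members with enough unspliced UMIs that was higher there, against 8.88% of 14019 genes. Unspliced Jak1 went from 308 to 1269 UMIs (log2 -0.45, -0.63 to -0.27), Tyk2 from 51 to 191 (log2 -0.59, -1.04 to -0.12) and Jak2 from 136 to 874 (log2 0.19, -0.08 to 0.46).

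In cones, 2 of 4 members with enough unspliced UMIs were higher, against 14.1% of 4668 genes. They were Stat3, with 17 and 313 unspliced UMIs (log2 2.88, 2.18 to 3.68), and Stat5b. RPE, with 4.65% and 4.77% unspliced UMIs in all, held 0 and 13 unspliced Stat3 UMIs beside its 24 and 470 spliced ones. Müller glia held 8 and 95 unspliced UMIs of Jak2 (log2 2.21, 1.17 to 3.46), while unspliced Jak1, with 14 and 56 UMIs, had a log2 ratio of 0.64 (-0.22 to 1.60) and unspliced Stat5b, with 10 and 11 UMIs, one of -1.22 (-2.60 to 0.17). Rods under 20% held 8 and 51 unspliced UMIs of Stat3 (log2 2.84, 1.75 to 4.13). There unspliced Jak1 had 16 and 6 UMIs and a log2 ratio of -1.25 (-2.89 to 0.18), an interval that includes 0.

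**Figure D4:**
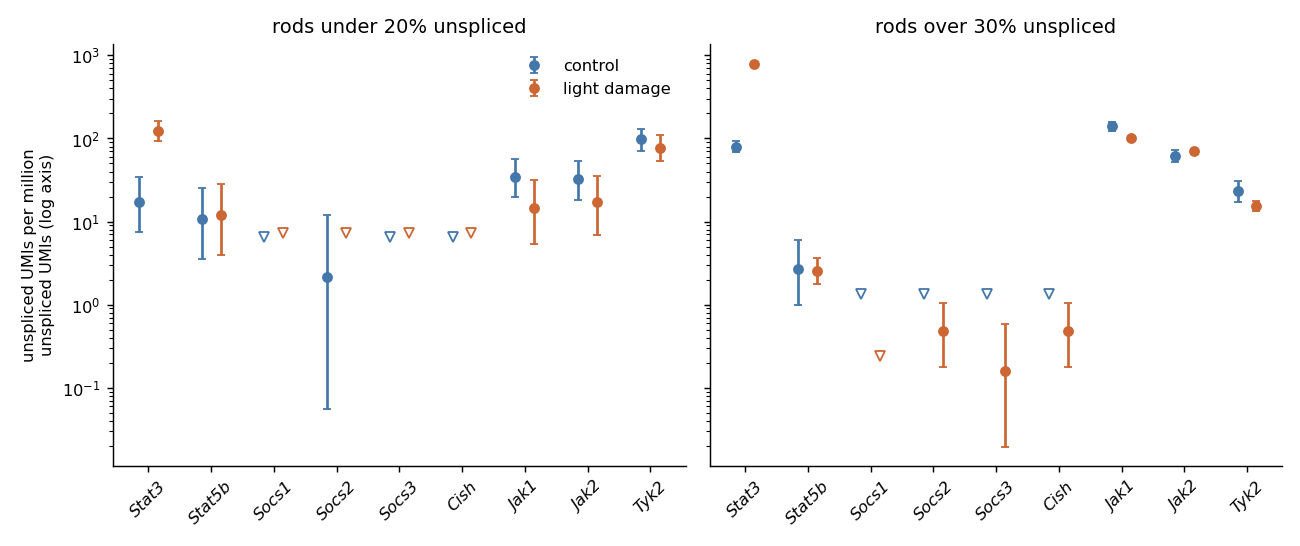
Unspliced UMIs of the 9 members as CPM of all unspliced UMIs (log axis) in rods under 20% (left) and over 30% unspliced (right), control in blue and light damage in orange, with 95% Poisson intervals. Open triangles mark 0 UMIs at the level of 3 UMIs. In rods over 30%, Stat3 lies at 79.9 and 789.7 CPM, and Socs1, Socs2, Socs3 and Cish had 0 to 6 unspliced UMIs per library.

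The split of rods was not sharp for these genes, so all rods were also placed in bins of their unspliced share. In light damage rods, Stat3 was 107 CPM (99.1 to 116) under 10%, 236 CPM in the bin of 20% to 30% and 434 CPM (414 to 455) in that of 40% to 50%. Beyond that bin it was lower, at 342 CPM (321 to 364) and 332 CPM (305 to 361), and it was 404 CPM (350 to 465) in rods of 70% and over. Control rods also had more Stat3 at higher unspliced shares, with 11.2 CPM (8.93 to 14.0) under 10%, 47.3 CPM at 30% to 40%, 75.1 CPM at 50% to 60% and 88.9 CPM (55.7 to 135) at 70% and over. Every light damage bin lay above the control bin of the same unspliced share beyond the intervals.

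Cish had a peak along this axis. In light damage rods it went from 17.6 CPM under 10% to 112 CPM (102 to 123) in the bin of 40% to 50%, and was 34.9 CPM (26.5 to 45.1) in that of 60% to 70% and 22.7 CPM (11.3 to 40.6) above it. Socs1 followed it, with 13.7, 13.6 and 11.9 CPM in the 3 bins from 30% to 60% and 1.20 CPM (0.15 to 4.35) in the bin of 60% to 70%. Socs3 was 34.3 CPM (28.8 to 40.6) in the bin of 40% to 50% and 17.2 to 20.5 CPM in the next 2 bins. At 60% to 70% control and light damage rods did not differ in Cish beyond counting error, with 30.5 CPM (14.6 to 56.0) in the control from 10 UMIs, while Stat3 still did, with 48.7 CPM (27.9 to 79.1) against 332 CPM (305 to 361).

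**Figure D5:**
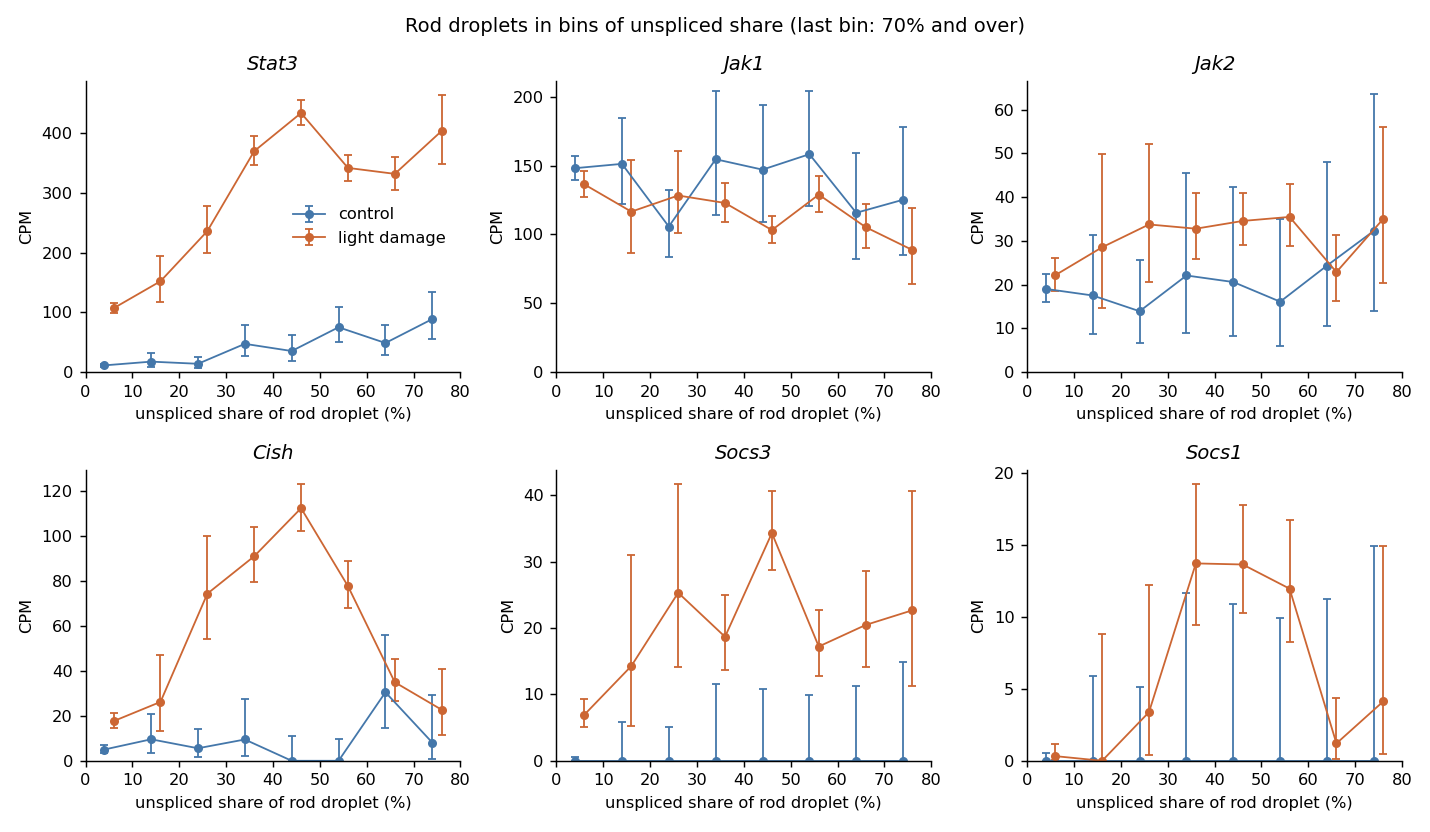
Levels in CPM (y axis, linear) of Stat3, Jak1, Jak2, Cish, Socs3 and Socs1 in rod droplets binned by unspliced share (x axis, percent), control in blue and light damage in orange, with 95% Poisson intervals. Light damage Stat3 reaches 434 CPM and lies above the control in every bin, Cish peaks at 112 CPM in the bin of 40% to 50%, and Socs3 and Socs1 have 0 UMIs in every control bin.

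Within light damage rods over 30%, droplets with a SOCS gene often held another member, and so did droplets with Jak1 or Jak2. Of 101 droplets with Socs1, 53 also held Cish (52.5%), against 17.1% of all droplets of the class, and 79 held Stat3 (78.2%), against 53.2%. Of 154 droplets with Socs3, 58 held Cish (37.7%) and 9 held Socs1. For comparison, 71.0% of 283 droplets with Jak2 held Stat3 and 32.5% held Cish. Among 757 droplets with Jak1 these shares were 65.1% and 26.2%. The droplets with both Socs1 and Cish were deeper, with a median of 9775 UMIs against 6180 in the class, and the part of depth in these shares was not tested.

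The genes whose levels over the 12 groups of class and library were most like those of 3 members were taken among 11121 genes with at least 100 UMIs. These correlations are descriptions over 12 points that share libraries and depth. For Stat3 they were Brd2 (Pearson r = 0.92), Jund (0.91), Ap2b1 (0.90), Fos (0.89) and Phf13 (0.89). For Socs3 they were Tubb6 (0.91), Bcl3 (0.90), Gadd45g (0.90), Cdkn1a (0.90) and Ccl2 (0.89), and for Cish they were Fos (0.86), Tiparp (0.85), Kctd10 (0.85), Snhg9 (0.83) and Lztr1 (0.82). Among the members, Stat3 was most like Socs3 (0.88), and Cish was closer to Stat3 (0.77) than to Socs3 (0.58).

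Upstream of the members, the receptor list held 18 genes, of which the 3 with the most UMIs were Osmr, Lifr and Il6st. Osmr, the oncostatin M receptor, was highest in RPE, with 223 CPM in the control and 2326 CPM after light damage (log2 3.38, 3.15 to 3.63), followed by Müller glia, with 147 CPM against 711 CPM (log2 2.28, 1.55 to 3.11). Rods under 20% held 0 and 65 UMIs of it and rods over 30% held 1 and 152. Il6st, which encodes gp130, was higher in rods under 20% (29.4 CPM against 109 CPM, log2 1.89, 1.68 to 2.11), in rods over 30% (log2 1.86, 1.51 to 2.23) and in Müller glia (log2 1.88, 0.99 to 2.92). Lifr, the LIF receptor, had a log2 ratio of 0.38 (0.22 to 0.54) in rods under 20% and 1.01 (0.79 to 1.23) in rods over 30%. By the measure used for members, but with at least 10 UMIs, 3 of 7 receptors were higher in rods under 20%, 3 of 10 in rods over 30% and 6 of 12 in RPE, and none was lower there. In Müller glia 4 of 11 receptors were higher and 1 was lower, and in microglia 3 of 12 were higher and 2 were lower. Over all genes with 10 UMIs, 7.47% were higher and 2.51% lower in rods under 20%, 9.12% and 7.41% in rods over 30%, 13.5% and 8.80% in RPE, 22.4% and 20.5% in Müller glia, and 15.4% and 18.5% in microglia.

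Of 13 ligands, 4 had enough UMIs in RPE, with 1 higher and 1 lower, and 2 in Müller glia, both higher, beside the shares over all genes just given. The minimum again covers both libraries together, and Lif passed it in Müller glia through light damage UMIs alone. In rods over 30%, 1 of 5 was higher and 2 were lower. The ligands with the most UMIs were Lif, Cntf and Il6. Lif had 324 UMIs in light damage Müller glia (1010 CPM) and 0 in control Müller glia, at least 36.7-fold higher. It had 0 to 38 UMIs in the other classes. Il6 had 221 UMIs in light damage RPE (96.3 CPM) and 0 in the control, at least 21.9-fold higher, and 6 UMIs or fewer in each of the other classes. Cntf had 65 and 164 UMIs in RPE, with a log2 ratio of -0.42 (-0.84 to 0.02), but was higher in rods over 30%, with 4 and 78 UMIs (log2 1.46, 0.05 to 3.37), and in cones, with 0 and 22 UMIs, at least 4.35-fold.

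Of the other SOCS genes, Socs7 had log2 ratios of 0.75 (0.60 to 0.90) and 0.77 (0.58 to 0.97) in the rod classes. Socs5 had a log2 ratio of 0.30 (0.01 to 0.58) in rods under 20% and 1.05 (0.64 to 1.48) in rods over 30%, and went from 1 to 171 UMIs in Müller glia (log2 5.86, 3.37 to 11.17). Among 10 other negative regulators 2 of 9 were higher in each rod class and 2 of 10 in RPE, with none lower, and in Müller glia 3 of 8 were higher and 1 was lower. Ptpn2, a phosphatase of JAK1 and STAT proteins, had a log2 ratio of 0.91 (0.73 to 1.09) in rods under 20%, 1.19 (0.91 to 1.48) in rods over 30% and 4.03 (3.14 to 5.10) in RPE, where it went from 14.7 CPM to 239 CPM. Ptpn1 had log2 ratios of 1.28 (1.02 to 1.55) and 1.69 (1.41 to 1.98) in the rod classes, and Pias1 0.25 (0.07 to 0.42) and 0.07 (-0.11 to 0.26).

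Downstream, 4 of 6 known STAT3 targets were higher in rods under 20%, 5 of 8 in rods over 30%, 5 of 7 in RPE and 7 of 9 in Müller glia, and none was lower, while over all genes with 10 UMIs the share higher was between 7.47% and 22.4% in these 4 classes. The median log2 ratio of the list in rods over 30% was 2.37, or 1.23 with genes at 0 set to their bound, against 0.01 for all genes. Junb went from 44.2 CPM to 746 CPM in rods over 30% (log2 4.08, 3.74 to 4.43), and Cebpd from 3.07 CPM to 124 CPM in rods under 20% (log2 5.34, 4.75 to 5.99) and from 174 CPM to 2622 CPM in Müller glia (log2 3.91, 3.26 to 4.65). Mcl1 had log2 ratios of 0.99 (0.78 to 1.20) and 1.07 (0.78 to 1.36) in the rod classes. These genes also respond to signals other than STAT3.

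Of the known STAT5 targets other than Cish, 1 of 4 was higher in each rod class, and in cones 2 of 4 were higher and 1 was lower, where 19.8% of all genes were higher and 6.31% lower. The gene higher in rods was Bcl6, with 6.64 CPM against 30.0 CPM in rods under 20% (log2 2.17, 1.73 to 2.64) and 11.2 CPM against 107 CPM in rods over 30% (log2 3.25, 2.59 to 4.01). Ccnd1 had log2 ratios of 0.47 (-0.16 to 1.11) and -0.44 (-1.04 to 0.21) there, and Bcl2l1 0.71 (0.35 to 1.08) and -0.03 (-0.49 to 0.47). The list does not say whether STAT5 raises or lowers its genes, so a higher level of Bcl6 is no measure of STAT5 activity. The part of STAT5 in these levels was not tested.

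Of the interferon targets 2 of 3 were higher in rods under 20%, 2 of 6 in rods over 30% 5 of 9 in RPE, 5 of 8 in Müller glia and 0 of 3 in microglia, and none was lower in these classes. Irf9 had 4.60 CPM against 69.1 CPM in rods under 20% (log2 3.91, 3.42 to 4.44) and a log2 ratio of 3.14 (2.54 to 3.82) in rods over 30%. Gbp3 had most of its UMIs in RPE, 2 in the control and 782 after light damage (log2 6.86, 5.00 to 9.91). Irf7 had log2 ratios of 0.25 (-0.38 to 0.87) and 0.88 (0.06 to 1.82) in the rod classes. Over the lists in rods over 30%, the median log2 ratio was 0.42 for the other negative regulators, 0.84 for receptors, 0.45 for ligands, 0.37 for STAT5 targets and 2.53 for interferon targets, against 0.01 for all genes. With genes at 0 set to their bound these medians were 0.43, 0.16, 0.84, 0.40 and 0.56.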

How the data were processed

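Per the labels and the study's methods, the authors demultiplexed with Cell Ranger 7.0.1 and counted with Salmon 1.10.1 and alevin-fry 0.8.1 on mm10. The deposited values are counts of UMIs per barcode and gene, as whole numbers in spliced, unspliced and ambiguous blocks, before any filter or normalization. Genes were named from GENCODE vM21 (32235 of 32285 IDs).

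Droplets needed 1464 UMIs (control) or 1614 UMIs (light damage), where the curve of ranked barcodes inflects, with under 10% mitochondrial UMIs, and the 114 and 276 droplets with the highest doublet scores were left out, because an automatic threshold called 0 and 1. A class needed 3 markers and a marker share of 3% (RPE), 0.5% (cones, Müller glia, microglia) or 1% (rods). These limits were set after the shares were seen, and the 9 members and all lists were chosen with earlier results of these data known. Named genes were all members, and the 3 genes of each list with the most UMIs over both libraries. One listed gene, and the counts and median of its list, are not reported here. Rods of 20% to 30% unspliced UMIs (177 and 62 droplets) enter only the bins. Summed spliced UMIs per class ranged from 32726 (control microglia) to 11363989 (light damage rods over 30%), which sets the precision. CPM carry exact Poisson, shares exact binomial and ratios exact conditional binomial intervals. List medians and likeness used 0.5 added UMIs. A fold against 0 is a bound against 3 UMIs of the class and leaves out counting error of the light damage count.

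Intervals were tested on Poisson counts simulated per class, with no droplets, in which 200 genes were changed. They held the true change for 95.9% of those in rods under 20% (10040 genes), 94.1% in rods over 30% (12040 genes), 96.8% in cones (7320 genes), 96.3% in RPE (8553 genes), 96.2% in Müller glia (4061 genes) and 95.9% in microglia (3127 genes). Such counts follow the model that the intervals assume, so a share near 95% was fixed in advance. UMIs gathered in single droplets were not simulated. Alternatives are given with the closing section. Intervals came from scipy 1.17.1, doublet scores and clusters from scanpy 1.11.5 with leidenalg 0.10.2, and figures from matplotlib 3.10.9, under Python 3.11.15.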

Additional observations from a re-analysis of the deposited data

Results flagged for a closer look

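Jak1 moved in opposite directions between classes, with 1 library per condition and no test of the difference. Its log2 ratio was -0.14 in rods under 20%, -0.32 in rods over 30% and -0.85 in cones, but 2.30 in Müller glia and 2.26 in microglia, and each of these intervals lay on 1 side of 0.

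Free RNA, from barcodes that enter no comparison, held more of 4 members after light damage than in the control. In the light damage library it held 172 CPM of Stat3, 11.8 CPM of Socs1, 38.0 CPM of Socs3 and 57.6 CPM of Cish. The control levels were 13.5, 0, 0.794 and 9.53 CPM.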

How the results depend on the processing

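The alternatives were a lower and a higher UMI minimum, mitochondrial UMIs under 5%, all doublets kept, expected free RNA subtracted, unspliced UMIs added, a single limit of 25% for rods, names by Leiden cluster, totals without ribosomal and mitochondrial genes, ratios centred on the median gene, and leaving out the droplet with the most UMIs of the gene. Leaving out droplets over 50000 UMIs was chosen after seeing the data. Of 408 member values under these, 398 stayed within the counting interval or, for a bound, within 0.5, and 10 moved. A change of direction was counted only where the main log2 ratio was at least 1 in size, and there were 0. Smaller ratios did change sign, as the ranges were -0.13 to 0.30 for Jak1 in RPE and -0.14 to 0.52 for Jak2 in cones. The Stat3 log2 ratio in rods over 30% was 3.07 with unspliced UMIs added. The Socs3 ratios became bounds without the top droplet, 3.52 in cones, 4.51 in RPE and 1.90 in Müller glia. The median log2 ratio of the ligand list in RPE, 1.11 or -0.22 with genes at 0 set to their bound, was -0.43 with unspliced UMIs added. By rank correlation 3, 1 and 2 of the 5 genes most like Stat3, Socs3 and Cish remained. Thinning moved 25 of 36 shares. The causes were not tested. Classes with few droplets, control microglia above all, limit what can be seen. No paired analysis was possible because each group has 1 library.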
